A study of Bos taurus with 27 samples.

Results

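Described here are bovine loci whose mix of transcripts differed between 8-cell and late 8-cell embryos made by in vitro fertilisation (IVF). For each assembled transcript the median FPKM (mapped fragments scaled to the length of the transcript and to the mapped fragments of the library) was taken in each IVF group. The share of a transcript was its median over the sum of medians of its locus. A locus belonged to the set if it had 2 to 19 transcripts, a sum of medians of at least 10 FPKM in both IVF groups, and at least 1 transcript whose share differed by 0.4 (40 percentage points) or more. The first conditions were met by 1801 of the 116933 loci in the table, and 7 of these, or 0.389%, met the last. The members were thus chosen on the late against 8-cell IVF difference, and their values in those groups are a description with no test. The parthenotes took no part in the choice.

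The libraries came from embryos cultured in SOF medium under oil at 38.5 C, and each of the 3 groups was labelled as 8-cell. Both IVF groups, 8 libraries at the 8-cell and 8 at the late 8-cell stage, came from F1 embryos of a Bos taurus by Bos indicus cross. The 11 libraries of parthenotes were Bos taurus. A parthenote is an embryo that develops from an oocyte activated without sperm, so it has no paternal genome. Polyadenylated RNA was copied with the SMART-Seq v4 low-input kit and tagmented with Nextera XT. How many embryos went into a library, and whether replicates are separate cultures, is not in the labels, so a p-value reflects library-to-library spread, which may be technical. The library codes of the earlier IVF group begin with 18062 and those of the other groups with 19058. What this number stands for is not stated, and it cannot be told apart from stage between the IVF groups. Between parthenotes and 8-cell IVF it cannot be told apart from breed and fertilisation. Breed and fertilisation cannot be told apart between parthenotes and IVF embryos, nor from stage between parthenotes and late 8-cell IVF.

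One gene can give several RNA forms through different start sites, splicing or polyadenylation sites. The early embryo lives on RNA stored by the oocyte, which is degraded while the embryonic genome is switched on. In cattle the main wave of this activation falls around the 8-cell stage. Stored and newly made RNA of the same gene need not have the same form, and a change in the mix can come from loss of one form, gain of another, or both. The identifiers in the table name a locus and a transcript and matched 0 entries of the reference table of genes. No gene name, function, position, sequence or embryo marker is therefore given for any locus. Of the 7 members 4 are named by identifier, and the others by their rank in the size of the share change.

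Total read numbers are not given by FPKM. Steps of whole reads among low values gave depths relative to a median library of 0.694 to 0.906 in 8-cell IVF, 0.336 to 1.67 in late 8-cell IVF and 0.682 to 1.38 in parthenotes. Late 8-cell IVF replicate 1 stood apart from the other 7 late libraries at the members. Late shares within libraries are given without it, or with its value apart. Late medians, sums of medians, shares of medians and other ranges include it unless stated. In that library 5 members reached a total of 1 FPKM, and at 0 of these was the share of the gaining transcript nearer to the late than to the 8-cell share of medians. The gaining transcript of a locus is the one with the largest rise in share and the losing transcript the one with the largest fall. In each of the other 7 late libraries this share was nearer to the late value at every member that reached 1 FPKM. The late value comes from these same libraries and the members were chosen on it, so this is a description with no test.

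A large change of share was rare. Among the 1801 eligible loci the largest change of any transcript between the IVF groups had a median of 1.16 percentage points, and it stayed under 10 points at 1608 loci. The largest share differences of the members were 41.6 to 85.1 points. The 2 members just inside the limit were at 41.6 and 42.9 points, and the 2 loci just outside were at 39.6 and 39.4. The transcript with the highest share was another one in late embryos at 5 of the 7 members and at 294 of the eligible loci (16.3%), a share the choice of members raises. Members had 3 to 6 transcripts with a median of 5, and the eligible loci had a median of 5. Their sums of medians were 15.3 to 95.3 FPKM in 8-cell IVF, where the eligible loci had a median of 29.8. In late embryos they were 13.1 to 109.6 FPKM, against a median of 32.9 over the eligible loci.

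**Figure D1:**
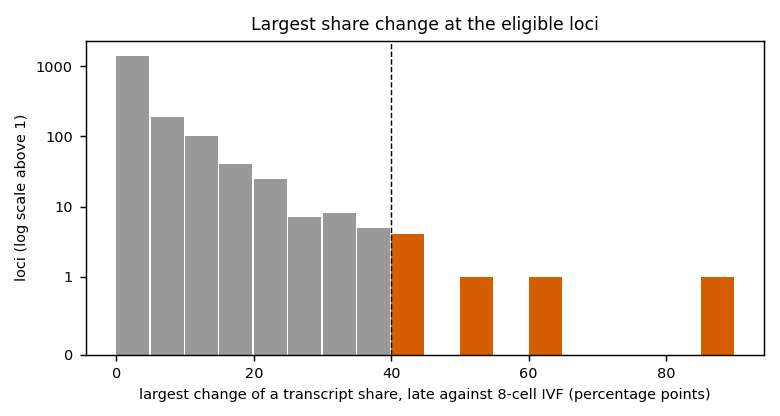
Number of eligible loci (vertical axis, log scale above 1) by the largest change of a transcript share between late and 8-cell IVF in percentage points (horizontal axis, bins of 5 points), with the limit of 40 points as a dashed line and the 7 members in orange. The bin from 0 to 5 points holds 1417 of the 1801 loci, and 1 locus lies beyond 85 points.

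Transcripts of a locus were not independent measurements. At 6 of the 7 members some transcripts kept a near fixed ratio to each other over all libraries in which both reached 1 FPKM (SD under 0.1 on the log2 scale). At 3 members 2 transcripts were listed with equal values in every library, as they were at 518 of the eligible loci (28.8%). How many eligible loci held a near fixed ratio was not counted. Joining transcripts of either kind left 4201 of the 11435 transcripts of the eligible loci, so such sets were not particular to the members. Transcripts of either kind can hold the same reads, and each then counts in the sum of its locus. The shares and totals below count every transcript. With such transcripts joined into 1, the share of medians of transcript 3 at MSTRG.73796 was 11.3% in 8-cell IVF, 95.4% in late embryos and 7.03% in parthenotes. That of the joined transcripts 2 to 4 at MSTRG.37380 was 2.09%, 64.9% and 2.36% in the same order, and that of the joined transcripts 1 to 3 at MSTRG.7185 4.06%, 47% and 4.30%. That of transcript 1 was 92%, 50.9% and 90.9% at MSTRG.38693, and 16.3%, 77.1% and 29.6% at the locus ranked 6, where it was joined with transcript 2. Totals were not computed with transcripts joined.

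At 5 members the gaining transcript was at least 2-fold higher and the losing transcript at least 2-fold lower by their medians in late embryos. This count rests on the values the rule used and was not made over the eligible loci, so it is a description. The largest change was at MSTRG.73796, a locus of 6 transcripts. In 8-cell IVF its losing transcript, transcript 1, was at 3.58 to 55.5 FPKM with a median of 23.6. In late embryos it was at 0 to 9.23 FPKM with a median of 1.42, a median 16.7-fold lower. Its gaining transcript, transcript 3, was at 0.865 to 16.5 FPKM with a median of 6.39 in 8-cell IVF and at 0 to 113 FPKM with a median of 62.1 in late embryos, a median 9.71-fold higher. Without late replicate 1 the late medians were 1.74 and 73.1 FPKM. Transcripts 1, 2, 4 and 5 had medians of 11.4 to 23.6 FPKM in 8-cell IVF and of 0.638 to 1.42 FPKM in late embryos. Without replicate 1, which was listed at 0, transcript 3 was at 32.5 to 113 FPKM in late embryos, above every 8-cell IVF library. The sums of medians of the locus were 71.2 FPKM in 8-cell IVF and 66 FPKM in late embryos.

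Within libraries transcript 3 held 5.87% to 16.1% (median 7.97%) of the FPKM of MSTRG.73796 in 8-cell IVF and 81.3% to 98% in 7 late libraries, with no overlap. In late 8-cell IVF replicate 1 all 6 transcripts were listed at 0, so it gave no share. In parthenotes transcript 3 held 3.58% to 21% (median 9.61%), which overlapped the 8-cell IVF libraries and lay below each of these 7 late libraries. Transcript 1 led in parthenotes as in 8-cell IVF, at 11.6 to 88.5 FPKM with a median of 47.

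MSTRG.37380, also of 6 transcripts, had a share difference of 61.2 points. Its losing transcript 6 was at 5.82 to 13.1 FPKM with a median of 10.2 in 8-cell IVF and at 0.871 to 9.76 FPKM with a median of 1.78 in late embryos. The highest late value was that of replicate 1, and the other 7 late libraries were at 0.871 to 4.50 FPKM, below every 8-cell IVF library. Transcripts 2, 3 and 4 were under 1 FPKM in each 8-cell IVF library, with medians of 0.288 to 0.308 FPKM, and had medians of 9.35 to 9.90 FPKM in late embryos. Transcripts 2 and 3 were equal in every library and transcript 4 was 1.05 to 1.07 times as high, so the 3 can hold the same reads. The gaining transcript, transcript 4, was at 0 to 0.991 FPKM in 8-cell IVF, at 0.856 FPKM in late replicate 1 and at 1.86 to 20.9 FPKM in the other late libraries. Transcripts 1 and 5 had 8-cell IVF medians of 1.96 and 2.30 FPKM and late medians of 1.82 and 1.77 FPKM.

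At MSTRG.37380 transcript 6 held 56.2% to 73.5% (median 65.6%) of the locus in 8-cell IVF, 58.4% in late replicate 1 and 2.03% to 20.4% in the other late libraries. In parthenotes it held 45.2% to 71.7% (median 65.2%), above each late library other than replicate 1. The parthenote median of transcript 4 was 0.359 FPKM, with a highest value of 1.80.

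**Figure D2:**
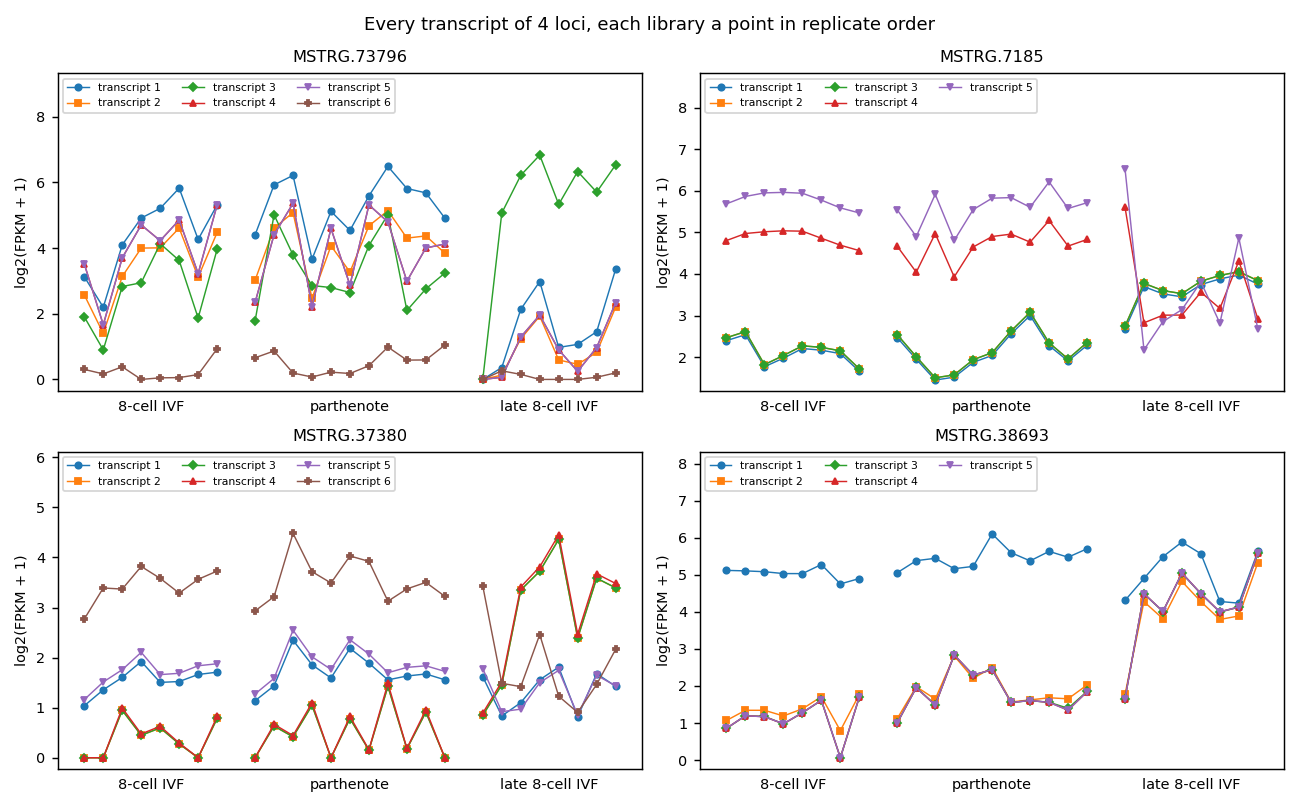
Level of every transcript on the log2(FPKM + 1) scale (vertical axis) in each library (horizontal axis, by group and in replicate order, lines only join points of a group) at the 4 named loci. Transcripts that keep a fixed ratio run together, and the first late 8-cell IVF library keeps the 8-cell order at MSTRG.7185, MSTRG.37380 and MSTRG.38693 and is listed at 0 at MSTRG.73796.

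MSTRG.7185, of 5 transcripts, had all its transcripts above 1 FPKM in each IVF group by their medians. Its losing transcript 5 was at 43.2 to 61.3 FPKM with a median of 55.5 in 8-cell IVF and at 3.52 to 28.1 FPKM in 7 late libraries. In late replicate 1 it was at 91.7 FPKM, above every 8-cell IVF library. The gaining transcript 3 was at 2.30 to 5.13 FPKM with a median of 3.58 in 8-cell IVF, at 5.70 FPKM in late replicate 1 and at 10.5 to 15.6 FPKM in the other late libraries. Transcripts 1, 2 and 3 ran together, with transcript 3 at 1.05 to 1.06 times transcript 1. Transcript 5 held 55.6% to 61% (median 58.2%) of the locus in 8-cell IVF, 7.50% to 30.2% in the 7 late libraries and 49.7% to 62.4% (median 57.4%) in parthenotes. The parthenote and 8-cell IVF ranges overlapped and both lay above these 7 late libraries.

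The locus ranked 5 had 3 transcripts, of which 2 moved as 1. Transcripts 2 and 3 kept a ratio of 1.38 to 1.46 over all 27 libraries. Transcript 1 was at 17.1 to 32.5 FPKM with a median of 20.7 in 8-cell IVF, at 15.9 FPKM in late replicate 1 and at 57.1 to 132 FPKM in the other late libraries. Transcript 3 was at 11.4 to 22.4 FPKM with a median of 14.5 in 8-cell IVF and at 5.92 to 14.6 FPKM with a median of 6.51 in late embryos, and these ranges overlapped. Transcript 1 led in all 3 groups, with 33.5% to 62.6% (median 47.4%) of the locus in 8-cell IVF, 35.5% to 68% (median 48.8%) in parthenotes and 78.9% to 92.6% in late embryos without replicate 1. With transcripts 2 and 3 joined its share differed by 34.8 points, so the locus would not have been a member.

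The locus ranked 6 had 4 transcripts and a wide spread of totals within groups. Its total ran from 7.85 to 113 FPKM in 8-cell IVF, from 0.116 to 494 in late embryos and from 0.0330 to 249.6 in parthenotes. The lowest late value was that of replicate 1 and the lowest parthenote value that of replicate 3, and neither gave a share. Its losing transcript 3 held 27% to 49.9% (median 45.9%) of the locus in 8-cell IVF, 6.15% to 14.3% in 7 late libraries and 8.08% to 38.3% (median 21.3%) in 10 parthenotes. Its gaining transcript 1 held 13.9% to 21.6% (median 15.6%), 40.5% to 46.3% and 17% to 26.2% (median 23.9%) of the locus in the same groups. For transcript 1 the parthenotes lay below each late library and overlapped 8-cell IVF with a higher median. Transcript 4 led in parthenotes with a median of 27.5 FPKM, whereas transcript 3 led in 8-cell IVF at 24.7 FPKM and transcript 1 in late embryos at 24.8 FPKM.

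At MSTRG.38693 transcripts 2 to 5 were higher in late embryos by 10.5- to 15-fold of their medians, and the losing transcript differed by less than 2-fold. Its losing transcript 1 was at 26 to 37.8 FPKM with a median of 32.4 in 8-cell IVF and at 17.8 to 58.1 FPKM with a median of 36.4 in late embryos, so its level was not lower by the medians while its share was. The gaining transcript 4 was at 0.0460 to 2.26 FPKM in 8-cell IVF, at 2.15 FPKM in late replicate 1 and at 15 to 47.1 FPKM in the other late libraries. Transcripts 4 and 5 were equal in every library, and transcripts 2 to 5 had late medians of 16.1 to 19 FPKM. Transcript 1 held 75.9% to 96.8% (median 86.1%) of the locus in 8-cell IVF, 67.9% in late replicate 1, 21.2% to 42.9% in the other late libraries and 58.8% to 88.5% (median 83.2%) in parthenotes. It still led in late embryos, and with transcripts 3, 4 and 5 joined its share differed by -41.1 points.

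At the locus ranked 7 the gaining transcript was itself lower in late embryos, by less than the losing one. Transcript 1 was at 28.1 to 45.8 FPKM with a median of 38.6 in 8-cell IVF and at 0.0690 to 4.79 FPKM in 7 late libraries, and transcript 3 at 13.2 to 32.8 FPKM with a median of 16.6 and at 0.120 to 10.6 FPKM. Late replicate 1 had 21.1 and 14.8 FPKM. The sum of medians was 5.15-fold lower in late embryos. Transcript 3 held 19.6% to 41.9% (median 26.1%) of the locus in 8-cell IVF, 14.4% to 49.1% (median 26%) in parthenotes and 54.7% to 86.6% in the 6 late libraries with a share other than replicate 1. Late replicate 2 had a total under 1 FPKM and gave no share.

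**Figure D3:**
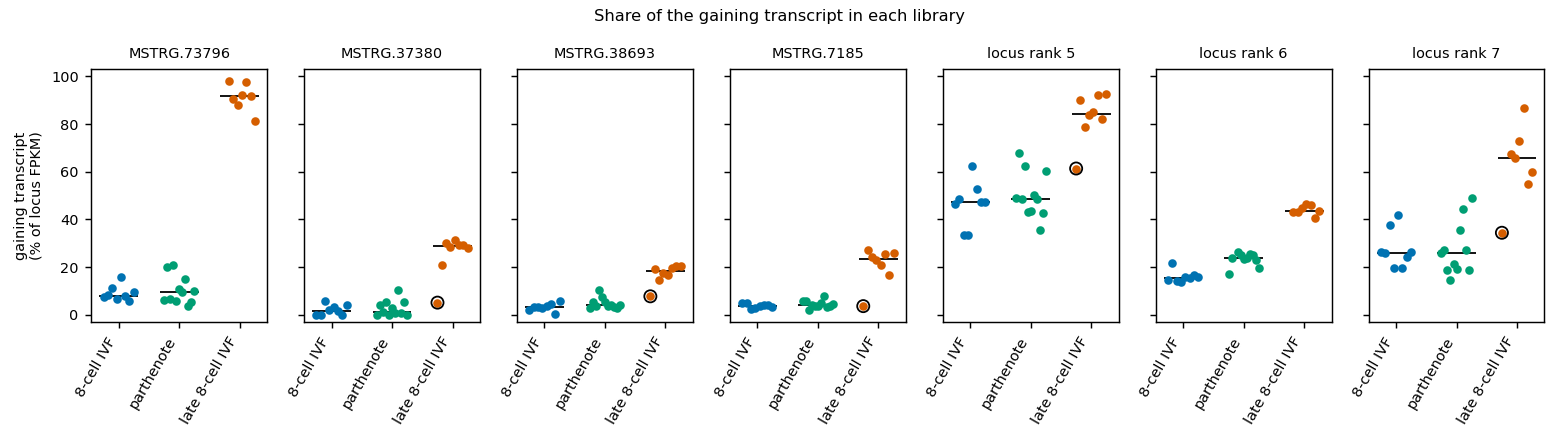
Share of the gaining transcript in the FPKM of its locus (vertical axis, percent) in each library (points) by group (horizontal axis) at the 7 members, with the group median as a bar and late 8-cell IVF replicate 1 ringed where its locus total reached 1 FPKM. Parthenotes sit with 8-cell IVF at 6 members and have a higher median than 8-cell IVF at the locus ranked 6, where they range from 17% to 26.2%.

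The parthenotes, which were not used to pick the loci, showed which mix embryos without a paternal genome carried at the same labelled cell number. At 6 of the 7 members the leading transcript of parthenotes was that of 8-cell IVF, and at 0 was it a transcript that led in late embryos alone. Among the 5 members whose leading transcript differed between the IVF groups, parthenotes had the 8-cell one at 4 and a further transcript at the locus ranked 6. The same counts were not made over the eligible loci, so they describe the members and are not set against a background. By library, 0 or 1 member had a gaining share nearer to the late than to the 8-cell value in each of the 11 parthenotes, and 1 member did in replicates 2, 4 and 11. For the losing share the locus ranked 6 differed, with 2 of 10 parthenotes nearer to the 8-cell value. At the other members 10 or 11 of the 11 parthenotes had a losing share nearer to the 8-cell value.

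The ratio of each transcript to the rest of its locus was then tested with limma over all 11435 transcripts of the 1801 eligible loci, on log2(FPKM + 1), with p-values adjusted by Benjamini and Hochberg. Between parthenotes and 8-cell IVF 81 loci were called, 4.5% of those tested, and 0 of the 7 members. At an unadjusted p under 0.05 there were 418 loci. The 8-cell IVF libraries helped to pick the members and were chosen far from the late ones, so these differences are not free of that choice. Between the IVF groups themselves, the contrast of the rule, 65.4% of eligible loci were called for their mix and 65.4% of loci for their totals. At MSTRG.73796 the log2 ratio of transcript 3 differed by -0.05 (95% interval -0.98 to 0.88), and that of transcript 1 0.60 (95% interval -0.32 to 1.51). At MSTRG.37380 the ratio of transcript 6 differed by -0.16 (95% interval -1.02 to 0.70). At MSTRG.7185 that of transcript 5 differed by -0.08 (95% interval -0.71 to 0.55). At MSTRG.38693 that of transcript 1 differed by -0.51 (95% interval -1.23 to 0.20). An interval that includes 0 does not show that the groups had the same mix.

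The locus ranked 6 came nearest to the threshold in this comparison. The log2 ratio of its transcript 1 was higher in parthenotes than in 8-cell IVF by 0.66 (SE 0.18, limma, adjusted p = 0.0602) and that of transcript 3 differed by -1.47 (SE 0.43, limma, adjusted p = 0.0779). Parthenote replicate 3, at 0.0330 FPKM, entered this fit with a ratio near 0 on the log2 scale. Without it the adjusted p was 0.0259 and 0.0379 by limma, and the locus was called. The call for transcript 1 was also made without parthenote replicate 1 or 11, without 8-cell IVF replicate 2 or without late replicate 1.

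Between parthenotes and late 8-cell IVF, whose library codes begin with the same number, 1196 loci were called, 66.4% of those tested, and all 7 members. The late libraries helped to pick the members, so this count and the differences are a description with no test, and both comparisons share the 11 parthenotes. At MSTRG.73796 the log2 ratio of transcript 3 was -6.08 in parthenotes relative to late embryos. At MSTRG.37380 that of transcript 6 was higher by 3.46. At MSTRG.7185 that of transcript 5 was higher by 2.42. At MSTRG.38693 that of transcript 1 was higher by 3.01. At the loci ranked 5, 6 and 7 the ratio of the gaining transcript was -2.41, -1.23 and -1.82 in parthenotes relative to late embryos. The losing transcript of the locus ranked 6 differed by 0.91 and did not pass (adjusted p = 0.0724, limma), so this locus was called by its other transcripts. Without late replicate 1 the losing transcript differed by 1.28 and passed (adjusted p = 0.00412, limma). Late replicate 1 entered at a ratio of 0 where its locus was listed at 0. Without it the differences at the 4 named loci were -6.50, 3.92, 2.78 and 3.29.

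**Figure D4:**
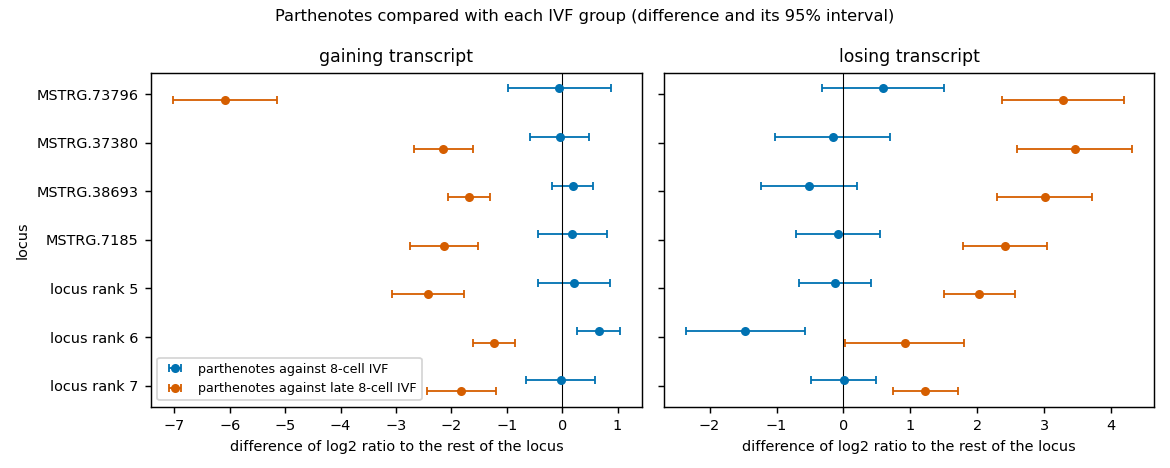
Difference between parthenotes and each IVF group (horizontal axis) in the log2 ratio of the gaining (left) and losing (right) transcript to the rest of its locus at the 7 members (vertical axis), with 95% intervals from limma that are not adjusted for the number of tests. The intervals against 8-cell IVF include 0 at each member other than the locus ranked 6, and those against late 8-cell IVF lie to one side of 0, where the late libraries helped to pick the members.

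The totals of the loci were then tested on log2 of the summed FPKM + 1. The fit covered the 16221 loci that reached 1 FPKM in at least 8 libraries, all 7 members among them. Every transcript counts in a total, so a total is not separate from the mix where transcripts can hold the same reads. FPKM is scaled to the mapped fragments of the library, so a total is relative to the other RNA in it. A lower level per cell and fewer cells that hold the RNA cannot be told apart in such libraries. Between parthenotes and 8-cell IVF 307 loci were called (1.89%), and 0 of the 7 members by limma, with 2792 loci at an unadjusted p under 0.05. Without late replicate 1, which takes part in the estimate of spread, 663 loci were called and again 0 members. Differences at the members ran from -0.37 to 0.70 on the log2 scale. At MSTRG.38693 parthenotes were at 36.5 to 85.7 FPKM and 8-cell IVF at 26.9 to 46.3, a log2 difference of 0.54 (SE 0.25, limma, adjusted p = 0.273). It passed with the compared groups alone (adjusted p = 0.0208) and with array weights (adjusted p = 0.0180), both by limma.

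Between parthenotes and late 8-cell IVF 11511 loci were called (71%), and 4 of the 7 members, which is near that background (5 without late replicate 1 or with array weights). Over all loci 21.7% were called lower in parthenotes and 49.2% higher. MSTRG.37380, MSTRG.38693 and the locus ranked 5 were lower in parthenotes, by log2 differences of -0.66, -0.88 and -1.32 (SE 0.29, 0.25 and 0.25, limma, adjusted p = 0.0396, 0.00332 and 4.5e-05). The locus ranked 7 was higher by 2.65 (SE 0.43, limma, adjusted p = 7.3e-06). Without late replicate 1 these 4 differences were -0.76, -1.14, -1.58 and 2.97. Transcripts that can hold the same reads each count in these totals, among them the gaining transcript of MSTRG.37380, MSTRG.38693 and MSTRG.7185. At MSTRG.37380 the median of gaining transcript 4 was 9.90 FPKM in late embryos and 0.359 FPKM in parthenotes. That of losing transcript 6 was 1.78 and 10.2 FPKM. Whether the totals differ with such transcripts counted once was not tested. The median difference over all tested loci was 0.55, and 0.42 with median-of-ratios scaling, which left the same 4 members called. The call at MSTRG.37380 was lost in 13 alternatives, among them without late replicate 5 (adjusted p = 0.118, limma), and with the replicate number as a block (adjusted p = 0.0630, limma). MSTRG.7185 differed by 0.38 (SE 0.22, limma, adjusted p = 0.114), and by 0.56 without late replicate 1 (adjusted p = 0.00635, limma). At MSTRG.73796 the totals were 29.8 to 209 FPKM in parthenotes, 10.5 to 153 in 8-cell IVF and 0 to 128 in late embryos. The log2 difference between parthenotes and late embryos was 1.21 (SE 0.65, limma, adjusted p = 0.0969), and 0.44 without late replicate 1. The ranges of these totals overlapped. The shares of transcript 3 in the 7 late libraries with a share overlapped neither other group. The locus was chosen on that share between the IVF groups, so the 2 measures cannot be weighed against each other.

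The set of 7 depended on how the rule was applied. Without late replicate 1 it held 11 loci, all 7 among them. With means in place of medians it held 4 loci, of which MSTRG.73796, MSTRG.37380 and MSTRG.38693 were members. With the median of the shares within libraries it held 6 loci, of which 4 were members, those named above. The loci ranked 6 and 7 were lost without late replicate 3 or 5, the locus ranked 6 without late replicate 4 or 8, and the locus ranked 7 without late replicate 2 or 6. With transcripts in a near fixed ratio joined, 23 loci met the rule and 6 were members.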

How the data were processed

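The submitters deposited FPKM values for 173449 assembled transcripts at 116933 loci in 27 libraries. FastQC 0.10.1, TopHat2 2.1.0 and StringTie are listed per the submitters' processing notes. What each did, on which build and annotation and with what filters is not given in the sources used here. Without a statement on strand, sense and antisense reads of a locus may be mixed. No columns were left unused (0).

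The members and all settings were chosen with earlier results of these data known. A share within a library needed a locus total of at least 1 FPKM. Tests used limma 3.58.1 in R 4.3.3 with the 3 groups in one fit, a trend and robust settings. They were two-sided, with Benjamini-Hochberg adjustment over every row tested and a threshold of 0.05. A locus was called for its mix if any of its transcripts passed, and transcripts with equal values were each tested. Differences on log2(FPKM + 1) come out too small for low transcripts. Tables were handled in Python 3.11.15 (pandas 2.3.3, numpy 2.4.6, scipy 1.17.1). The limma tests and the estimate of relative depth were tried on simulated data. Total depth is unknown, so no interval covers counting error. The low values gave relative depth, with 94.9% of pairwise ratios no more than 0.03 log2 from the fitted ones. By rule the 2 members with the largest share change among those with a higher late sum of medians, and the 2 among those with a lower one, are named by identifier. Gene lists and marker lists could not be applied without gene names.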

Additional observations from a re-analysis of the deposited data

Results flagged for a closer look

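In 11 of 44 groups of values examined, 1 library lay far from the rest of its group. Chance gives about 1 in 20 for independent groups, but these groups share libraries and loci, so the 2 are not compared. Groups of 11 parthenotes were not examined, which left only the shares of the locus ranked 6 in 10 parthenotes. Late 8-cell IVF replicate 1 was the outlying library in 10 of the 11 flagged groups. At MSTRG.37380 its gaining transcript held 5.12% of the locus, with the next late library at 21.1%, and its losing transcript 58.4%, with the next at 20.4%. At MSTRG.38693 the corresponding values were 7.77% beside 14.8% and 67.9% beside 42.9%. At MSTRG.7185 they were 3.65% beside 16.8% and 58.7% beside 30.2%. At the locus ranked 5 they were 61.4% beside 78.9% and 22.8% beside 12.4%. The total of MSTRG.7185 was 156 FPKM in that library, with the next late library at 93 FPKM. The total of the locus ranked 7 was 43.1 FPKM, with the next at 16.1 FPKM. In 8-cell IVF replicate 2 the gaining transcript of the locus ranked 6 held 21.6%, with the next library at 16.9%.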

How the results depend on the processing

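With a limit of 0.3 or 0.5 on the share difference the rule found 20 or 3 loci, and with means 4. A minimum sum of 5 FPKM gave 11 loci. A minimum sum of 20 FPKM gave 5, without MSTRG.37380 and the locus ranked 7. With transcripts in a near fixed ratio joined, a setting added after seeing the data, the rule found 23. Leaving out 1 IVF library gave 5 to 11. The count of members with the 8-cell leading transcript in parthenotes was 6 in each setting tried. Members called for their mix against 8-cell IVF were 1, in each case the locus ranked 6, with a pseudocount of 0.1, the compared groups alone, array weights, the share itself or joined transcripts, and 0 to 1 when 1 library was left out. For totals that count was 1 with the compared groups alone or array weights. Against late 8-cell IVF all 7 were called for their mix in every setting tried, and 3 to 5 for their totals.

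Over all loci, the 81 called for their mix between parthenotes and 8-cell IVF became 28 with a pseudocount of 0.1, 31 with the share itself, 202 with the compared groups alone, 352 with array weights and 195 with a minimum sum of 1 FPKM, and 34 to 120 when 1 library was left out (34 to 52 without 8-cell IVF replicate 1, 2, 3, 5, 6 or 7 or parthenote replicate 6 or 7). The 307 called for totals became 1263 with the compared groups alone, 1785 with array weights, 135 with no filter and 147 with a filter of 5 FPKM, and 126 to 663 when 1 library was left out (663 without late replicate 1, and 126 to 189 without 8-cell IVF replicate 1, 2, 5, 6 or 7 or parthenote replicate 6). A minimum sum of 1 FPKM gave 4675 loci for the mix against late 8-cell IVF and 4560 between the IVF groups, with more loci tested. For totals against late 8-cell IVF no filter gave 17703 and a filter of 5 FPKM 5660, and between the IVF groups that filter gave 5440. The cause was not tested where the number of loci tested does not account for it.

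Replicate numbers did not pair the libraries: of 24 same-numbered pairs 6 had deviations correlated over 0.1 (range -0.33 to 0.22). With the replicate number as a block, on numbers 1 to 8, the loci called for their mix were 78 against 8-cell IVF and 1109 against late 8-cell IVF, and for totals 219 and 10712. The block left 0 and 7 members called for their mix and 0 and 3 for their totals. Low transcripts and loci near 0 in 1 library limit the shares, and relative depth was lowest in late 8-cell IVF replicate 6.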

Other observations

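Among the 8-cell IVF libraries the totals of MSTRG.73796 and of the locus ranked 6 moved together. On the log2(FPKM + 1) scale Pearson's r was 0.92 (n = 8, exact permutation test, p = 0.00114, adjusted p = 0.0479 over 42 relations between member totals within 8-cell IVF and within parthenotes). Spearman's rho was 0.95 (exact permutation test, p = 0.00114, adjusted p = 0.0479). Without the 2 libraries farthest from the median of MSTRG.73796 r was 0.84. In the 11 parthenotes r was -0.20 and rho 0.28 (permutation test, adjusted p = 0.843 and 0.895), and the difference between the groups was not tested. In parthenote replicate 3 the locus ranked 6 was at 0.0330 FPKM and MSTRG.73796 at 199 FPKM, and r without this library was not computed. These 2 loci had the widest spread of totals among the members in 8-cell IVF, with SDs of 52.4 and 36.2 FPKM around means of 81.1 and 51.8 (n = 8). They were also the 2 members below 1 FPKM in late 8-cell IVF replicate 1, where MSTRG.7185 was at 156 FPKM.

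One further relation passed by r alone. In parthenotes the totals of MSTRG.7185 and of the locus ranked 7 had r = 0.84 (adjusted p = 0.0496, permutation test) and rho = 0.59 (adjusted p = 0.895, permutation test). Without the 2 parthenotes farthest from the median of MSTRG.7185 r was 0.41, so it rests on those libraries.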
